A study of Mus musculus with 6 samples.

Results

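The hippocampal formation is built from the dentate gyrus, the fields CA3, CA2 and CA1, and the subiculum. Granule cells of the dentate gyrus send mossy fibres to the CA3 field. The entorhinal cortex (EC) is the main cortical input to the dentate gyrus and lies directly beside the hippocampal formation in the mouse brain, so dissection separates them by a cut along anatomical landmarks. Each hippocampal field has genes that are known to be transcribed much more strongly in its own principal neurons than in neighbouring cortex, and these serve as markers of the field.

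The genes described here are 10 such markers, chosen by name: the dentate gyrus genes Prox1, C1ql2, Dsp, Tdo2 and Lct, and the genes Fibcd1, Mpped1, Bok, Zbtb20 and Spink8, which mark hippocampal fields. Of the 10 genes, 6 had a row in the authors' deposited table, which held 18746 genes after rows of one symbol were merged. The 4 others, Tdo2, Mpped1, Zbtb20 and Spink8, were found neither by symbol, nor by an older symbol, nor by gene identifier, and were not analysed here. Each of the 6 measured markers had 1 row.

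RNA came from the left and the right EC of untreated wild-type C57BL/6 mice aged 6 months, with 3 Affymetrix Mouse Gene 2.0 ST arrays for each side, 6 in all, labelled as biological replicates. All arrays shared strain, genotype and age, and the labels leave unsaid whether any animal gave both of its sides. The study set the sides against each other to find transcripts with unequal levels. For each named gene the authors' deposited table gives 1 fold between the sides and 1 p-value, so no value per array, mean, SD or level can be given for any marker, and the abundance of hippocampal transcripts in the tissue could not be checked against the label. For the same reason no result on a named gene could be computed without a given array. The per-array table has numeric row IDs, and 0 of the probe set IDs in the authors' deposited table occur among them. Which test gave the p-values is not stated in any source used here. In bulk tissue fewer cells of a type and less RNA per cell cannot be told apart.

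Folds are given as left over right, a negative log2 fold standing for a higher signal on the right. This direction is likely rather than stated. The table's title line names left before right, and both tables had their extreme differences on the same side: 9 genes were at least 2-fold apart with a negative sign and 0 with a positive sign in the authors' deposited table, and in the per-array values 9 rows above the median signal were higher on the right by more than 1 on the log2 scale and 0 on the left. The lowest of these per-array differences was -2.48 and the lowest log2 fold of the authors' deposited table, that of Ttr, was -2.48 too.

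None of the 6 measured hippocampal markers differed between the left and the right EC at a p under 0.05 in the authors' deposited table, where 7.87% of all genes did so. The dentate gyrus genes C1ql2 and Prox1 had the largest folds of the set, with signals 1.34-fold and 1.22-fold higher on the right according to the authors' deposited table. The other measured markers, Dsp, Lct, Bok and Fibcd1, had folds of 1.08 or less in either direction. Of the 6 markers 5 lay to the right of equality and 1 to the left, beside 46.0% of all genes on the right, and the median log2 fold of the markers was -0.09 beside 0.01 for all genes in the authors' deposited table. The counts are a description of a few genes, and a marker so near equality as Fibcd1 adds to them on the strength of its sign alone.

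C1ql2 encodes a secreted C1q-like protein that granule cells release at mossy fibre synapses, where it binds kainate receptors and neurexin. Its signal was 1.34-fold higher on the right, a log2 fold of -0.42, with a p of 0.189 in the authors' deposited table. By size this fold ranked 111 among the 18746 genes, so that 0.592% of genes had a fold as large or larger. After Benjamini-Hochberg adjustment over all genes of the authors' deposited table its p was 0.733. No gene of that table had an adjusted p under 0.05.

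Prox1 encodes a homeodomain transcription factor that specifies and maintains the granule cell fate, and in adult forebrain it also marks a part of the GABAergic interneurons. Prox1 was 1.22-fold higher on the right, a log2 fold of -0.29, with a p of 0.138 in the authors' deposited table (0.712 after Benjamini-Hochberg adjustment over all genes). Its fold ranked 378 by size, within the top 2.02% of genes.

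C1ql2 and Prox1 therefore combined folds that few genes reached with p-values that gave no call. A fold of at least 1.2 was found in 483 genes of the authors' deposited table (2.58%), 292 of them with the right side higher (1.56%) and 191 with the left (1.02%). Of these 483 genes 65.2% had a p under 0.05, against 6.35% of genes under that fold, and C1ql2 and Prox1 were not among those 65.2%. How the 3 arrays of each side were spread for either gene cannot be read from the table.

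**Figure D1:**
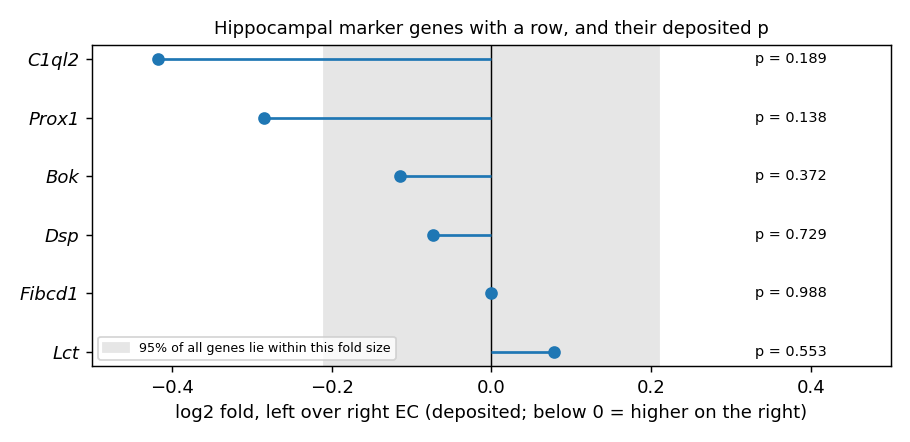
Log2 fold of left over right EC (horizontal axis, below 0 is higher on the right) for each of the 6 hippocampal marker genes that had a row in the authors' deposited table, with the deposited p beside each point. The grey band spans the fold size of 1.16 within which 95% of all genes lie, and of the 6 genes C1ql2 and Prox1 fall outside it.

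The remaining dentate gyrus genes did not share the folds of C1ql2 and Prox1. Dsp encodes desmoplakin, a desmosomal linker protein that granule cells of the mouse transcribe. Dsp was 1.05-fold higher on the right, with a p of 0.729 in the authors' deposited table. Lct, which encodes the intestinal enzyme lactase and is used as a granule cell marker in mouse, was the one marker on the left side, 1.06-fold higher there with a p of 0.553 in the authors' deposited table. For scale, the median fold size over all genes in the authors' deposited table was 1.04, and 36.1% of genes had a fold as large as that of Dsp and 33.4% one as large as that of Lct.

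The measured markers of the hippocampal fields, Bok and Fibcd1, had folds of 1.08 or less. Bok encodes a BCL2 family protein with high transcript levels in CA3 pyramidal neurons. Bok was 1.08-fold higher on the right, a log2 fold of -0.11, with a p of 0.372 in the authors' deposited table. A fold as large or larger was found in 19.8% of genes. Fibcd1, a receptor for chitin and glycosaminoglycans whose transcript marks CA1 pyramidal neurons, had a log2 fold of -0.001 and a p of 0.988 in the authors' deposited table. This was among the smallest differences of all, since 98.5% of genes in the authors' deposited table had one as large or larger.

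Genes of the same fields beyond the 10 markers were taken from 7 lists: dentate granule cells, mossy cells, immature dentate neurons, CA1, CA2, CA3 and subiculum. The lists named 46 different genes, of which 35 had a row. They were chosen with earlier results of these data known, so the counts below are a description. Of these 35 genes 18 were higher on the right, 17 on the left, with a median log2 fold of -0.004 in the authors' deposited table. A p under 0.05 was found for 5 of them, 4 higher on the right (4.10% of all genes) and 1 higher on the left (3.77% of all genes) in the authors' deposited table. After Benjamini-Hochberg adjustment over all genes 0 of the 35 passed, the lowest adjusted p being 0.597. This held for the whole of the authors' deposited table, where 0 of 18746 genes passed and the lowest adjusted p was 0.509.

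In the dentate granule cell list, 6 of 8 genes were on the right side and 2 on the left, beside 46.0% of all genes on the right. The median log2 fold of the list was -0.06 in the authors' deposited table. Dock10, a guanine nucleotide exchange factor for small GTPases, was the only gene of this list with a p under 0.05, at a log2 fold of -0.26 (p = 0.0128) in the authors' deposited table. Of all genes 7.87% had such a p, and 4.10% had it with the right side higher. A call in 1 of 8 genes cannot be set apart from that share. The fold of Dock10 was a little smaller than that of Prox1, and its p was lower. The channel gene Trpc6 and the kinase family gene Plk5, both granule cell genes, had log2 folds of -0.05 (p = 0.657) and 0.11 (p = 0.459) in the authors' deposited table. Neurod1, a transcription factor of the granule cell lineage that the list of immature dentate neurons also holds, had a log2 fold of -0.09 (p = 0.121) in the authors' deposited table.

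The mossy cells are glutamatergic neurons of the dentate hilus. Of their 5 measured genes 4 were on the right side, beside 46.0% of all genes. Of these 4 genes 2 had a p under 0.05 in the authors' deposited table. Of all genes 4.10% had such a p and were higher on the right. Glp1r, the receptor of glucagon-like peptide 1, was 1.46-fold higher on that side (p = 0.018) in the authors' deposited table, the largest fold among the markers and the 7 lists of hippocampal genes. Calb2, which encodes calretinin and is also abundant in cortical interneurons and in immature granule cells, had a log2 fold of -0.27 (p = 0.0331) in the authors' deposited table. The other measured mossy cell genes, Csf2rb2, Nmb and Ajap1, lay between -0.05 and 0.01 on the log2 scale in the authors' deposited table. The 4 measured immature dentate neuron genes were split evenly, with a median log2 fold of -0.04 in the authors' deposited table. Sox11, at 0.002 on the log2 scale, and Eomes, at 0.04, were on the left. Neurod1 and Calb2, which that list also holds, were on the right, and of the 4 only Calb2 had a p under 0.05.

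**Figure D2:**
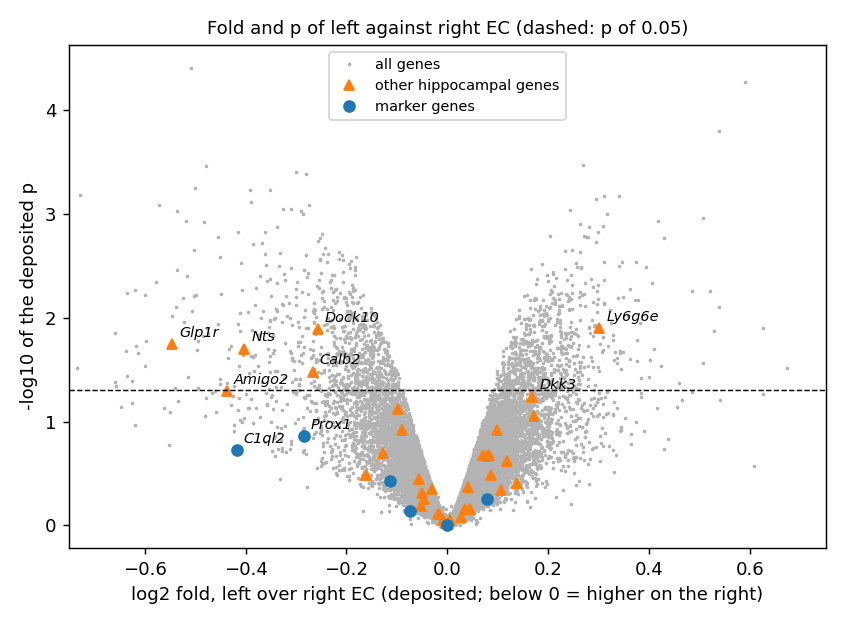
Deposited log2 fold of left over right EC (horizontal axis, below 0 is higher on the right) against -log10 of the deposited p (vertical axis), for all genes (grey), the 35 other hippocampal genes (orange triangles) and the 6 marker genes (blue circles). The blue circles all lie under the dashed line at a p of 0.05, C1ql2 and Prox1 to the left of the dense cloud, and 19 genes beyond 0.75 on the log2 scale lie outside the horizontal axis.

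The genes of the CA fields showed no call at a p under 0.05 in the authors' deposited table, where 7.87% of all genes had such a p. All 4 measured CA1 genes were on the left side, which held 10123 of all 18746 genes. Their median log2 fold was 0.13. They were led by the secreted protein gene Dkk3 at 1.12-fold (p = 0.0577) and the POU factor gene Pou3f1 at 1.13-fold (p = 0.0885) in the authors' deposited table. Their sign was opposite to that of C1ql2 and Prox1, in a count of 4 genes without a call. Fibcd1, the CA1 gene among the markers, had no such fold.

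Of the 7 measured CA2 genes 4 were on the right side and 3 on the left. Amigo2, an adhesion molecule gene used as a CA2 marker, had a fold of 1.35 to the right (p = 0.0514), while Rgs14, a regulator of G protein signalling that marks the same field, was 1.06-fold higher on the left (p = 0.214) in the authors' deposited table. The 5 measured CA3 genes lay between log2 folds of -0.13 and 0.09, and the adhesion gene Pvrl3 had a p of 0.199 in the authors' deposited table. Socs2, a suppressor of cytokine signalling with 2 rows there, had a log2 fold of 0.09 and a p of 0.329 after its rows were merged. Its smallest row p was 0.11. Bok, the CA3 gene among the markers, fell inside that range.

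For the subiculum, 2 of 4 listed genes had a p under 0.05, 1 in each direction. Such a p was reached by 4.10% of all genes with the right side higher and by 3.77% with the left side higher. Nts, the neurotensin precursor, was 1.32-fold higher on the right (p = 0.0199) and Ly6g6e, a gene of the Ly6 family, was 1.23-fold higher on the left (p = 0.0125) in the authors' deposited table. Fn1, encoding fibronectin, and the vesicular glutamate transporter gene Slc17a6 had log2 folds of 0.14 (p = 0.387) and -0.16 (p = 0.325) in the authors' deposited table. Together the subicular genes had a median log2 fold of -0.01.

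**Figure D3:**
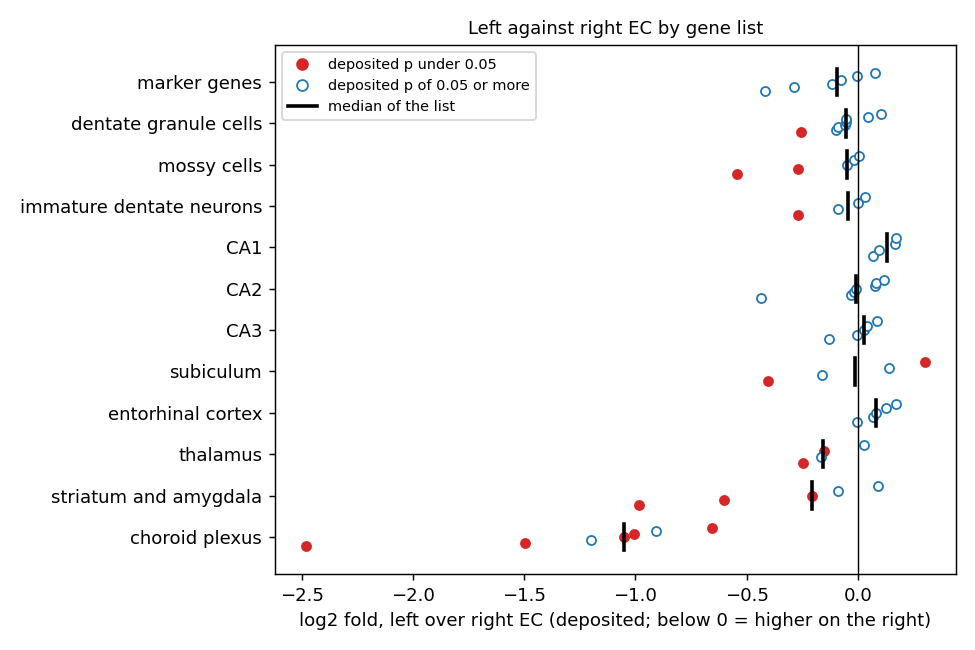
Log2 folds of left over right EC (horizontal axis, below 0 is higher on the right), 1 point a gene, from the authors' deposited table, for the marker genes and 11 lists of hippocampal, EC and other brain tissue genes (rows). Red points have a deposited p under 0.05 and black bars mark list medians: the marker genes, with a median of -0.09, hold no red point, and the choroid plexus list has its median at -1.05.

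Genes of the EC itself, the choroid plexus, the striatum and amygdala, and the thalamus were read beside the markers. Over all genes, 46.0% were on the right side and 4.10% were there with a p under 0.05 in the authors' deposited table. Of the EC's own genes, 4 of 5 measured were on the left side, with a median log2 fold of 0.08, among them Reln, encoding the matrix protein reelin of layer 2 cells, at 1.13-fold (p = 0.1), the transcription factor gene Cux2 at 1.09-fold (p = 0.0728), Trps1 at 1.06-fold (p = 0.332) and Wfs1, which the CA1 list also holds, at 1.05-fold (p = 0.208) in the authors' deposited table. Etv1 had a log2 fold of -0.001. None of the 5 had a p under 0.05.

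The choroid plexus, which lies in the ventricle beside the hippocampus, had 7 of 7 measured genes higher on the right, with log2 folds from -2.48 to -0.66. The 7 genes were Ttr (log2 fold -2.48), Kl (-1.50), Kcnj13 (-1.20), Clic6 (-1.05), Sostdc1 (-1.01), Cldn2 (-0.91) and Aqp1 (-0.66). Of these 5 had a p under 0.05 in the authors' deposited table. For this list and the 2 that follow, the share of all genes with such a p and higher on the right was 4.10%. The lists were chosen with earlier results of these data known, so their counts are a description and no test against that share. In the list of striatum and amygdala 4 of 5 genes were on the right side, 3 with a p under 0.05 in the authors' deposited table: Adora2a, Cyp26b1 and Rgs9. Drd1a and Rspo2 of that list had log2 folds of -0.09 (p = 0.344) and 0.09 (p = 0.594) in the authors' deposited table. Among thalamic genes 3 of 4 were on the right side, with Prkcd (p = 0.0079) and Tcf7l2 (p = 0.0121) below 0.05 in the authors' deposited table. After Benjamini-Hochberg adjustment over all genes 0 genes of these lists passed, as was so for every gene of the authors' deposited table. C1ql2 and Prox1 lay on the same side as all measured choroid plexus genes and most of the measured striatal and thalamic genes. That side held 46.0% of all genes. The part of such tissue in their folds was not tested, since without values per array it cannot be seen whether the markers and these genes were high on the same arrays.

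In the per-array values 0 of 41345 rows differed between the sides at an adjusted p under 0.05 by limma, and 3023 had an unadjusted limma p under 0.05. The array medians ran from 7.24 to 7.28 on the log2 scale and the correlation between any 2 arrays was 0.9946 to 0.9965, which describes the arrays and not the markers. The precision of all values is limited by the 3 arrays of each side, and a p above the threshold does not show that a marker was equal on both sides.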

How the data were processed

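The authors deposited a table of all genes with p-values and a signed fold for left versus right EC, per the file headers. The deposited fold is a signed score without values between -1 and 1, the sign giving the side and the size the ratio of the higher to the lower side, as the authors' software wrote it. Ingenuity iReport was used, per the series description; no source used here states the normalization or the test. The authors also deposited log2 signals of 41345 rows on 6 arrays, whose log2 scale was inferred from the values and whose rows are not named here.

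Folds were turned into log2 folds. The 20414 rows were merged by symbol into 18746 genes by the mean log2 fold and mean signed z. All genes named in the report had 1 row except Etv1 and Socs2. P-values of single-row genes are the deposited ones, and adjusted values are Benjamini-Hochberg over all genes, made here. Older symbols were matched through the GRCm38.p6 gene table. The per-array rows were tested with limma 3.58.1 in R 4.3.3 (side as the only term, two-sided), after a test on simulated data. Figures used matplotlib 3.10.9.

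The 10 markers and the lists were chosen with earlier results of these data known. Named genes were all markers, list genes with a p under 0.05 or else the smallest p, up to 4 a list, and all subiculum, EC and choroid plexus genes; others named (Trpc6, Plk5, Neurod1, Pou3f1, Rgs14, Socs2, Drd1a, Rspo2, Csf2rb2, Nmb, Ajap1, Sox11 and Eomes) were added after their values were seen. 1 further gene of the planned striatum and amygdala list is not reported here and is left out of its counts. The planned search for genes most like Prox1 over the arrays could not be run, as the rows are unnamed. Alternatives covered normalization, centring, filtering, variance model, replicate block, leaving out each array, merging of rows and adjustment.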

Additional observations from a re-analysis of the deposited data

How the results depend on the processing

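The 5 of 6 measured markers on the right side stayed 5 when log2 folds were centred on the median of all genes. The planned choice of the row with the smallest p could not alter any marker, since each has 1 row, and adjustment could not add to their 0 calls. Of the other hippocampal genes Socs2 alone had several rows, and the count of 5 was the same with its row of smallest p. Per-array rows passing limma's adjusted p numbered 0 under all 11 alternatives. Rows at an unadjusted limma p under 0.05 numbered 3023, between 2104 and 3829 with 1 array left out, and 1808 when the 20672 rows above the median signal were fitted. Without the second right array more of them were higher on the left (1952) than on the right (1877). With the replicate block 0 rows passed and 2790 had an unadjusted limma p under 0.05. The numbers were not taken as pairs, since the labels do not say that equal numbers share a mouse. Deviations of same-numbered arrays correlated at 0.02, -0.09 and 0.05, which cannot show whether animals were shared. No paired or leave-one-out analysis of a named gene was possible because the table of named genes holds no array values.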
